A study of Mus musculus with 2 samples.

Results

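Semaphorins, their plexin and neuropilin receptors and the semaphorin receptor CD72 were followed through 10 mRNAs, fixed by name as *Sema4d*, *Sema4a*, *Sema3c*, *Plxnb1*, *Plxnb2*, *Plxna1*, *Plxnd1*, *Nrp1*, *Nrp2* and *Cd72*. All 10 are among the 32291 genes of the table. They were described across the 11 cell types of the deposited annotation in both libraries of a single-cell RNA sequencing study of colitis-associated colon cancers (CACs). The study asked what the loss of *Mir34a*, the gene of a p53-induced microRNA, in myeloid cells does to such tumors.

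The tumors came from female C57Bl/6 mice of 6 to 10 weeks at the start, which received the carcinogen azoxymethane (AOM, 10 mg/kg) and 3 cycles of dextran sodium sulfate (DSS, 2.5% in cycles 1 and 2 and 2% in cycle 3) and were sacrificed on day 110. In the group labelled Mir34a_Mye_KO, floxed *Mir34a* alleles were combined with LysM-Cre, a Cre recombinase under the *Lyz2* promoter that is active in macrophages, neutrophils and other myeloid cells. Co-housed littermates with the floxed alleles only, labelled Mir34a_F/F, served as controls, so both groups carry the floxed alleles and received AOM and DSS. For each genotype, 6 to 8 tumors of 3 mice were pooled into 1 library. Differences between the libraries can therefore not be set against the variation between mice, no test was made, and every interval given here is a 95% interval for counting error only.

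Semaphorins are secreted or membrane-bound ligands first known for steering growing axons, and they also guide immune and vascular cells. Plexins are their main signalling receptors and act on small GTPases and the cytoskeleton, while neuropilins lack a signalling domain of their own and serve as co-receptors for the secreted class 3 semaphorins and for vascular endothelial growth factors. *Sema4d*, also known as CD100, is a membrane semaphorin of leukocytes that binds plexin-B1 on epithelial and endothelial cells and CD72, an inhibitory receptor, on B cells and macrophages.

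Since the study deletes a microRNA, the seed of miR-34a and the matches to it among these mRNAs are shown here. The mature strand lies at chr4:150068473-150068494 on the plus strand of GRCm38.p6, with bases 2 to 8, the seed, in capitals.
mmu-miR-34a-5p: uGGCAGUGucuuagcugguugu
The seed's complement CACTGCC, read on the transcript strand, was found in annotated 3′ UTRs of 3131 of 20741 genes of the table, which is 15.1%. Of the 10 mRNAs only *Sema4d* carried it, at 1 position in each of 2 transcripts with different 3′ UTRs, and the matching bases are in capitals.
Sema4d, transcript ENSMUST00000021900.13: cttccatctctcatCACTGCCc
Sema4d, transcript ENSMUST00000110042.2: cttggctggctccaCACTGCCa
The match of ENSMUST00000021900.13 lies at chr13:51701644-51701650 on the minus strand, at base 959 of a 3′ UTR of 1363 bases. The match of ENSMUST00000110042.2 lies at chr13:51686098-51686104 on the minus strand, at base 116 of 691, and is followed by an A opposite base 1 of the microRNA. A match of letters does not show binding, and the table counts genes, so the UMIs of these transcripts could not be separated.

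Levels are means over the cells of a type of UMIs (unique molecular identifiers, each standing for 1 captured mRNA molecule) per 10000 UMIs of the cell. They can be compared between cell types for 1 gene but not between genes, and pairs of values follow the order library labelled Mir34a_F/F, then library labelled Mir34a_Mye_KO. The libraries held 20312 and 18571 cells, with a median of 4787 and 7716 UMIs per cell, and the library labelled Mir34a_Mye_KO was the deeper one in 11 of 11 types, by a factor between 1.11 (endothelial cells) and 5.69 (B cells). Median mitochondrial content was 4.63% and 6.28%, and 2470 and 4130 cells lay at or above the 25% that the study states as its limit. Each of 11 fixed marker lists was highest in its own cell type in both libraries, although only 67.4% of cells scored highest for the type they were given. Among epithelial cells this share was 69.8% and 45.9%, and 96 cell barcodes occurred in both libraries, 43 of them with the same cell type. The feature named mir34apri, the closest to the targeted gene, did not check the labels, since in macrophages it had 133 and 462 UMIs and a level of 0.0723 (0.0560 to 0.102) and 0.111 (0.0964 to 0.140). The feature crenlslyz2 had 451 and 172 UMIs in macrophages, a level of 0.164 (0.145 to 0.194) and 0.0490 (0.0384 to 0.0764). Both went against the direction the labels give, and whether they cover the deleted or inserted sequence is not given in the sources used here, so every direction below rests on the labels alone.

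Among cell types with at least 10 UMIs in each library, the type with the highest level was the same in both libraries for 9 of the 10 mRNAs. The heat map of levels shows *Sema4d* and *Sema4a* highest in neutrophils, *Sema3c* in fibroblasts, *Plxnb1* and *Plxnb2* in epithelial cells, *Plxna1* and *Cd72* in macrophages, and *Plxnd1* and *Nrp2* in endothelial cells. The exception was *Nrp1*, which was highest in endothelial cells of the library labelled Mir34a_F/F and in fibroblasts of the other.

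**Figure D1:**
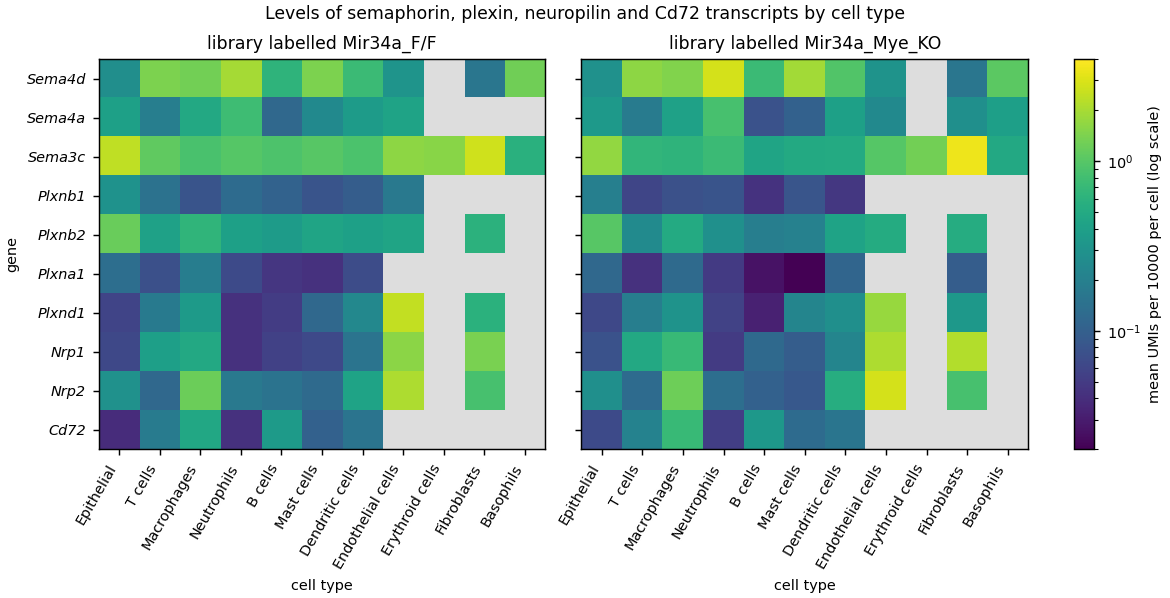
Level of each of the 10 mRNAs (rows) in each of 11 cell types (columns) in the library labelled Mir34a_F/F (left) and the library labelled Mir34a_Mye_KO (right), as mean UMIs per 10000 UMIs of a cell on a log colour scale, grey where under 10 UMIs were counted. *Sema4d* is bright across the leukocytes, *Plxnd1* and *Nrp1* are brightest in endothelial cells and fibroblasts, *Nrp2* in endothelial cells and macrophages, and *Sema3c* shows a level in every cell type.

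Among the ligands, *Sema4d* had its highest levels in leukocytes. Its level in neutrophils was 1.97 (1.81 to 2.15) and 2.87 (2.73 to 3.02), against 0.277 (0.260 to 0.297) and 0.290 (0.270 to 0.313) in epithelial cells. Mast cells followed with 1.42 and 1.91, T cells with 1.40 and 1.62, macrophages with 1.28 and 1.47 and basophils with 1.28 and 1.05. In the 48 and 40 basophils the 6 neutrophil markers were at 29.0% and 38.0% of their neutrophil level. The 6 mast cell markers there were at 8.29% and 31.1% of their mast cell level, and the part of either in the basophil level was not tested. Dendritic cells at 0.747 and 0.946 and B cells at 0.631 and 0.735 were lower, and erythroid cells, endothelial cells, epithelial cells and fibroblasts lay at the bottom, between 0.159 and 0.435. All 11 cell types held the same rank in both libraries, but of the 10 pairs of neighbours in that order only neutrophils and mast cells had intervals that did not overlap. Of neutrophils, 46.4% and 69.6% held a UMI of *Sema4d*, at a median depth of 4107 and 7330 UMIs. Epithelial cells, the background type here, did so in 15.8% and 16.0% at a depth of 5316 and 6623 UMIs. Thinning each cell to 1000 UMIs left out 840 and 181 cells and gave 15.4% and 22.1% for neutrophils against 2.48% and 2.96% for epithelial cells. Most UMIs of *Sema4d* came from other cells than neutrophils. Macrophages held 29.7% and 31.6% of the 8438 and 17332 UMIs in the libraries, epithelial cells 26.9% and 11.6% and neutrophils 10.3% and 14.2%.

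*Sema4a*, a class 4 semaphorin that acts on T cells and on plexin-bearing vessels, was also highest in neutrophils, at 0.773 (0.680 to 0.888) and 0.856 (0.786 to 0.941). Macrophages came next with 0.488 (0.446 to 0.541) and 0.419 (0.386 to 0.464), apart from neutrophils in both libraries. Dendritic cells had 0.366 and 0.410 and epithelial cells 0.403 and 0.346, and these and the ranks below were not apart from their neighbours. Owing to their number, epithelial cells held 66.5% and 52.3% of the UMIs of *Sema4a*. T cells, B cells and mast cells had its lower levels, from 0.0761 to 0.249. Fibroblasts, in which 7 and 28 UMIs were counted, served as the background type, with a UMI in 7.02% and 16.7% of cells against 26.2% and 43.3% of neutrophils. The median depth of fibroblasts was 3902 and 9215 UMIs.

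*Sema3c*, a secreted class 3 semaphorin that signals through neuropilins and plexins, had a different pattern. It was highest in fibroblasts at 2.73 (2.04 to 3.86) and 3.52 (3.03 to 4.23), followed by epithelial cells at 2.42 (2.37 to 2.47) and 1.70 (1.66 to 1.74). Epithelial cells held 83.2% and 76.0% of its UMIs. None of the 10 neighbours in its order were apart, and its level in leukocytes was between 0.441 and 1.09. The epithelial markers *Epcam*, *Krt8*, *Krt18*, *Krt19*, *Cdh1* and *Cldn7* were found in leukocytes as well, none of them at 0 in any of these types. In T cells, B cells, neutrophils and mast cells the summed level of these 6 markers was 32.4% to 40.3% of the epithelial level in the library labelled Mir34a_F/F and 20.5% to 35.5% in the other. *Sema3c* in the same types stood at 37.4% to 44.9% and 26.0% to 43.9% of its epithelial level. The part of transcripts from epithelial cells in these leukocyte levels was not tested.

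Among the receptors, *Plxnb1*, the receptor of *Sema4d*, was low throughout. Its level in epithelial cells was 0.300 (0.282 to 0.320) and 0.197 (0.184 to 0.214), and epithelial cells held 83.1% and 75.4% of its UMIs. In T cells, B cells, neutrophils and mast cells it was at 26.7% to 48.9% and 22.2% to 40.9% of this level, close to the range of the epithelial markers. Of its 10 neighbours in rank none were apart, and only 1 of 11 cell types had the same rank in both libraries. *Plxnb2*, a broadly expressed receptor of class 4 semaphorins, reached 1.19 (1.15 to 1.22) and 1.02 (0.987 to 1.05) in epithelial cells. This was apart from macrophages, which came next by the mean of both libraries. Macrophages had 0.637 (0.586 to 0.699) and 0.508 (0.470 to 0.558) of *Plxnb2*. In the library labelled Mir34a_Mye_KO erythroid cells at 0.568, on 7 UMIs, fibroblasts at 0.531 and endothelial cells at 0.526 ranked above macrophages.

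The plot of epithelial transcripts in immune cells sets these values side by side. *Plxnb2* was at 53.8% and 50.0% of its epithelial level in macrophages, where the epithelial markers were at 28.0% and 30.7%. In dendritic cells it was at 34% and 42.8%, with the markers at 24.0% and 23.0%. In T cells, B cells, neutrophils and mast cells it was at 30.6% to 37.0% and 18.9% to 28.3%, which in the library labelled Mir34a_Mye_KO was below the markers in all of them.

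**Figure D2:**
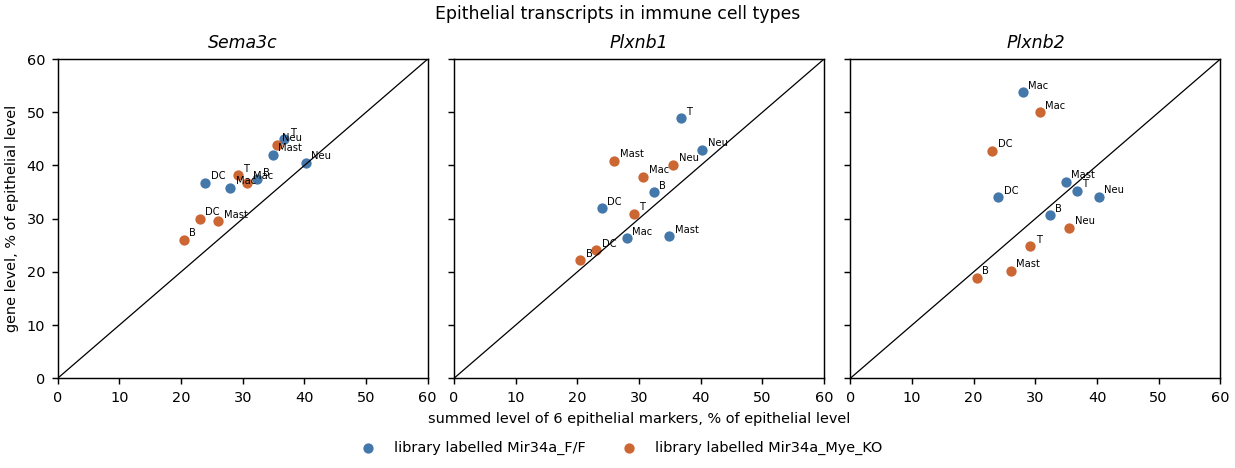
Level of *Sema3c*, *Plxnb1* and *Plxnb2* in 6 immune cell types as a percentage of the epithelial level (vertical axis) against the same percentage for the summed level of 6 epithelial markers (horizontal axis), with the line of equality, blue for the library labelled Mir34a_F/F and orange for the library labelled Mir34a_Mye_KO. Mac stands for macrophages, Neu for neutrophils and DC for dendritic cells. *Sema3c* lies on or somewhat above the line in both libraries, and is furthest above it in dendritic cells of the library labelled Mir34a_F/F at 36.7% against 24.0%. *Plxnb2* lies well above it in macrophages at 53.8% and 50.0% and in dendritic cells at 34% and 42.8%.

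*Plxna1*, which pairs with neuropilins and also binds *Sema6d*, was highest in macrophages among cell types with at least 10 UMIs in each library, while endothelial cells, with 7 and 8 UMIs, had 0.0586 and 0.143. Its level in macrophages was 0.189 (0.164 to 0.226) and 0.124 (0.106 to 0.157), against 0.137 (0.126 to 0.151) and 0.120 (0.109 to 0.134) in epithelial cells, and no neighbours in its order were apart. *Plxnd1*, the receptor through which *Sema3e* restrains endothelial cells, was an mRNA of endothelial cells. It was at 2.44 (1.90 to 3.19) and 1.78 (1.47 to 2.39) in endothelial cells, 4.57 times the mean level of fibroblasts, which came next, and macrophages had 0.361 and 0.305. A UMI of *Plxnd1* was found in 52.6% and 52.3% of endothelial cells, against 0.943% and 6.67% of erythroid cells. Median depths were 3964 and 4407 UMIs in endothelial cells and 1787 and 2312 in erythroid cells. In basophils no UMI of *Plxna1* or *Plxnd1* was counted, where the upper bounds of the level were 0.590 and 0.555.

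The neuropilins were highest in vascular or stromal cells. Macrophages held 45.7% and 54.7% of the UMIs of *Nrp1* and 44.9% and 58.8% of those of *Nrp2*. Epithelial cells held 21.9% and 9.27% of the UMIs of *Nrp1* and 45.3% and 26.3% of those of *Nrp2*. *Nrp1* stood at 1.58 (1.21 to 2.15) and 2.08 (1.69 to 2.76) in endothelial cells and at 1.38 (1.01 to 2.24) and 2.18 (1.80 to 2.81) in fibroblasts, which overlapped. Macrophages with 0.493 (0.454 to 0.542) and 0.715 (0.678 to 0.764), then T cells with 0.401 (0.358 to 0.454) and 0.491 (0.458 to 0.535), were each apart from their neighbours in both libraries. The remaining types had 0.0309 to 0.224, with neutrophils at 0.0427 and 0.0501. The plot of levels by cell type shows this step from stroma to macrophages and T cells. A UMI of *Nrp1* was found in 37.1% and 49.5% of endothelial cells, and in 5.94% and 19.3% of B cells, which had median depths of 3664 and 20852 UMIs. After thinning, the shares were 13.5% and 15.1% of endothelial cells and 0.752% and 0.868% of B cells.

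*Nrp2*, a co-receptor for class 3 semaphorins and for VEGF-C, was at 2.09 (1.63 to 2.74) and 2.85 (2.42 to 3.54) in endothelial cells. Macrophages had 1.21 (1.14 to 1.28) and 1.25 (1.20 to 1.31), apart from endothelial cells in both libraries but not from fibroblasts. Fibroblasts had 0.850 and 0.862, dendritic cells 0.428 and 0.546 and epithelial cells 0.293 and 0.278. Of the other neighbours in this order only dendritic and epithelial cells were apart.

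*Cd72* was highest in macrophages at 0.480 (0.447 to 0.522) and 0.712 (0.668 to 0.768), then in B cells at 0.358 (0.293 to 0.449) and 0.335 (0.290 to 0.407). T cells had 0.181 and 0.210, apart from B cells, and dendritic cells 0.155 and 0.155. Epithelial cells, at 0.0390 and 0.0663, had a UMI of *Cd72* in 2.10% and 3.48% of cells, against 23.0% and 33.2% of macrophages. The median depth of macrophages was 7252 and 11227 UMIs. With cells thinned, 0.300% and 0.618% of epithelial cells and 3.65% and 6.36% of macrophages held one. The intervals of macrophages and B cells overlapped in the library labelled Mir34a_F/F and were apart in the other.

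**Figure D3:**
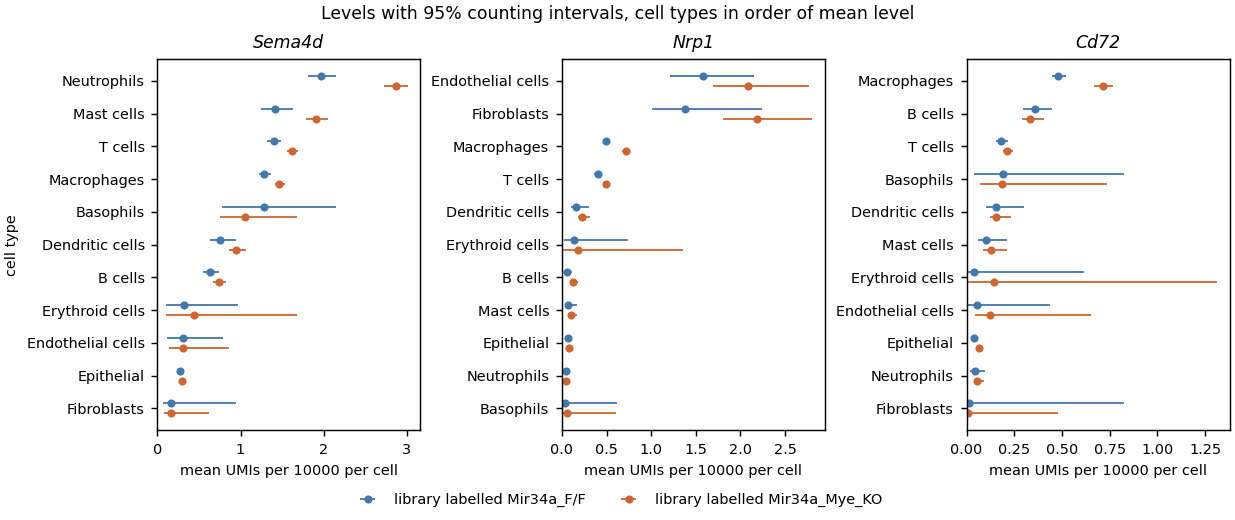
Level of *Sema4d*, *Nrp1* and *Cd72* in each of 11 cell types, ordered by mean level, as mean UMIs per 10000 UMIs of a cell with 95% intervals for counting error, blue for the library labelled Mir34a_F/F and orange for the library labelled Mir34a_Mye_KO. Neutrophils stand apart at the top for *Sema4d* at 1.97 and 2.87, and for *Nrp1* the intervals of endothelial cells and fibroblasts overlap each other and lie above those of macrophages.

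Of 11509 other genes with a level of at least 0.2 in some group, those most like each mRNA over the 22 cell type and library means, on log2(level + 0.05), are given by Pearson's r as a description, since the points share 2 libraries and their depth. *Sema4d* was most like *Cd53* (0.926) and *Rac2* (0.923), both pan-leukocyte genes. *Plxnd1* was most like *Calcrl* (0.893) and *Eng* (0.890), both endothelial receptors. *Cd72* was most like *Ly9* (0.801) and *Ly86* (0.781), both of leukocytes. *Sema4a* was most like *Atp6v1g1* (0.919) and *Rtp4* (0.884). *Sema3c* was most like *Tpm1* (0.951) and *Isl1* (0.934), and *Plxnb1* was most like *Trim15* (0.903) and *4930422I22Rik* (0.877). *Plxnb2* was most like *Tcf7l2* (0.916), a Wnt effector, and *Eps8* (0.880). *Plxna1* was most like *Gipc1* (0.860) and *Xaf1* (0.857), *Nrp1* most like *Iigp1* (0.937) and *Dst* (0.931), and *Nrp2* most like *Soga1* (0.929) and *Ifi44* (0.918). Among the 10 mRNAs themselves, *Plxnd1*, *Nrp1* and *Nrp2* were alike at 0.861 (*Plxnd1* and *Nrp1*), 0.817 (*Plxnd1* and *Nrp2*) and 0.790 (*Nrp1* and *Nrp2*), and *Sema4d* and *Sema3c* were opposed at -0.774.

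Gate genes were then used to split cell types, and the ratios between the libraries within such splits, given further on, were added after the data were seen. Within cell types, the neuropilins, *Plxnd1* and *Cd72* differed between cells with and without a UMI of a gate gene, as the plot of levels within cell types shows. The cells with and without a gate gene were not matched for depth. In dendritic cells, *Nrp2* was found in cells with *Ccr7*, the receptor of mature, migrating dendritic cells, at 0.729 (0.584 to 0.942) and 1.01 (0.896 to 1.19). In dendritic cells without *Ccr7* it was at 0.194 (0.112 to 0.458) and 0.170 (0.0944 to 0.333), which is a log2 ratio of 1.91 (1.16 to 2.67) and 2.58 (1.82 to 3.33). *Nrp1* was higher in dendritic cells with *Siglech*, a gene of plasmacytoid dendritic cells, at 0.969 (0.601 to 2.31) and 0.568 (0.373 to 0.931). Dendritic cells without *Siglech* had 0.0578 and 0.165 of *Nrp1*. *Sema4d* was also higher with *Siglech*, at 1.47 and 2.18 against 0.661 and 0.735. These were 37 and 63 cells with *Siglech* and 152 and 192 with *Ccr7*. Median depths with and without *Ccr7* were 7602 and 6102 UMIs in the library labelled Mir34a_F/F and 15966 and 12045 in the other.

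In T cells, *Nrp1* was higher in cells with *Foxp3*, the factor of regulatory T cells, at 0.551 (0.448 to 0.697) and 0.838 (0.750 to 0.944), than in those without, at 0.374 (0.327 to 0.433) and 0.390 (0.356 to 0.439). In cells with *Cd8a* it was at 0.158 and 0.134, a log2 ratio of -1.39 and -1.94 against T cells without. *Plxnd1* followed *Trdc*, the constant gene of the gamma-delta receptor, at 0.427 (0.297 to 0.731) and 0.431 (0.342 to 0.567) against 0.162 and 0.173. With *Cd8a*, *Plxnd1* was at 0.0593 and 0.0733, and its log2 ratio against T cells without was -1.65 (-2.65 to -0.64) and -1.46 (-2.50 to -0.42). *Sema4a* was lower in cells with *Foxp3*, at 0.104 and 0.106 against 0.210 and 0.203.

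In macrophages, *Cd72* and *Nrp1* went with *Mrc1*, the mannose receptor of alternatively activated macrophages. *Nrp1* was at 0.848 (0.778 to 0.939) and 1.14 (1.08 to 1.23) with *Mrc1* and at 0.278 (0.233 to 0.343) and 0.336 (0.290 to 0.402) without. *Cd72* was at 0.923 (0.857 to 1.01) and 0.974 (0.918 to 1.05) with and at 0.211 (0.179 to 0.262) and 0.481 (0.413 to 0.567) without. Cells with *Ly6c2*, a monocyte gene, were the reverse, with a log2 ratio of *Cd72* of -2.78 (-3.23 to -2.33) and -2.09 (-2.34 to -1.84), of *Nrp1* of -1.42 and -0.93, and of *Nrp2* of -1.26 and -0.73. With *Arg1*, *Nrp2* was at 1.55 and 1.48 against 0.961 and 1.16, and *Plxnd1* at 0.467 and 0.393 against 0.284 and 0.272. Macrophages with *Mrc1* were deeper, at medians of 10915 and 18462 against 5854 and 6140 UMIs. In B cells, *Cd72* was at 0.570 and 0.813 with *Ms4a1*, which encodes CD20, and at 0.270 and 0.0977 without.

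In epithelial cells, *Plxnb1* and *Plxnb2* went in opposite directions. *Plxnb1* was higher with the stem cell gene *Lgr5*, at 0.424 (0.386 to 0.476) and 0.361 (0.324 to 0.417) against 0.271 and 0.163, whereas *Plxnb2* was lower, at 0.784 and 0.807 against 1.28 and 1.06. With *Krt20*, a keratin of differentiated colonocytes, *Plxnb2* was at 1.59 (1.54 to 1.65) and 1.49 (1.44 to 1.54) against 0.983 and 0.778, and *Plxnb1* at 0.178 and 0.133 against 0.360 and 0.230. *Nrp2* resembled *Plxnb1*, with a log2 ratio of 0.75 and 0.71 with *Lgr5* and -0.94 and -1.01 with *Krt20*. *Sema3c* was at 3.09 and 2.35 with *Lgr5* against 2.26 and 1.56. With *Mki67*, a gene of cycling cells, the log2 ratio was -0.07 in both libraries for *Plxnb1* and -0.18 and -0.02 for *Plxnb2*.

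**Figure D4:**
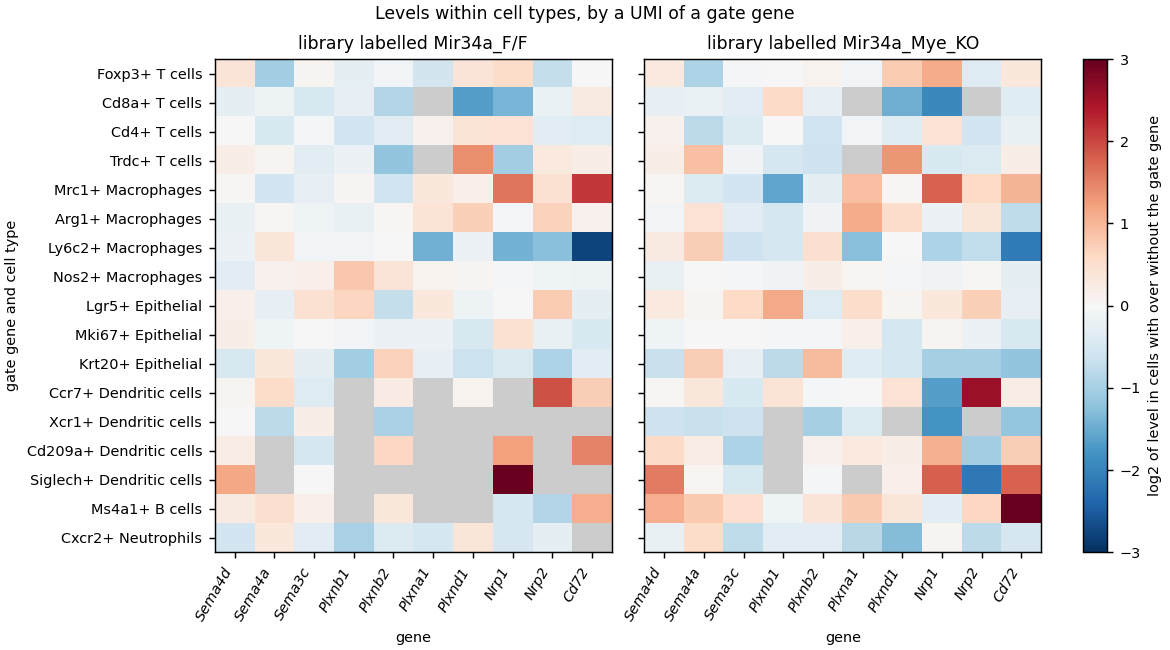
Log2 ratio of the level of each of the 10 mRNAs (columns) in cells with a UMI of a gate gene over cells of the same type without it (rows), for the library labelled Mir34a_F/F (left) and the library labelled Mir34a_Mye_KO (right), grey where under 10 UMIs were counted in either set of cells. *Nrp2* in dendritic cells with *Ccr7* (1.91 and 2.58) and *Cd72* in macrophages with *Ly6c2* (-2.78 and -2.09) stand out in both libraries.

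Between the libraries, *Sema4d*, *Nrp1* and *Cd72* were above 0 in most cell types, *Sema4a*, *Sema3c*, *Plxnb1*, *Plxnb2* and *Plxna1* were below 0 in most, and *Plxnd1* and *Nrp2* were mixed, with 5 above and 4 below, on the log2 ratio of the library labelled Mir34a_Mye_KO over the other. The log2 ratio of levels was given for 86 of the 110 pairs of gene and cell type, those with at least 10 UMIs in each library. Of these pairs 5 were higher by 1.5 fold or more, against 5.91% of all tested pairs of gene and cell type, and 22 were lower, against 19%. These are 5.81% and 25.6% of the 86 pairs, so that the share of higher pairs was close to this background and that of lower pairs somewhat above it. Of these 27 pairs only 9 were past the fold under every other choice of cells, scaling, pseudocount or background that gave a value, namely *Sema3c* in T cells, B cells, mast cells and dendritic cells, *Plxnb1* in T cells and B cells, *Plxnb2* in T cells and mast cells and *Sema4a* in mast cells. None of these 9 had a value with the level of the background type subtracted. T cells are themselves the background type of *Sema3c*, *Plxnb1* and *Plxnb2*, and the other pairs did not exceed the background level in at least 1 library. For the pairs in T cells that choice could therefore not be made. Of the other pairs, *Plxnb2* and *Sema4a* in mast cells exceeded their background type in the library labelled Mir34a_F/F only. Their levels there were 0.438 against 0.418 and 0.249 against 0.105, the last on 7 UMIs. The rest exceeded it in neither library, and being past the fold does not cover that choice. *Plxnb1* in B cells and *Sema4a* in mast cells also had no value after thinning. Of the other 59 pairs, 30 were past the fold under at least 1 of these choices. By cell type, the share of all genes higher by the fold was 4.86% in epithelial cells, 3.09% in T cells, 4.53% in macrophages, 6.3% in neutrophils, 4.73% in B cells, 5.03% in mast cells, 6.58% in dendritic cells, 10.2% in endothelial cells, 25.3% in erythroid cells, 11.2% in fibroblasts and 11.1% in basophils. The share lower was 14.8%, 17.7%, 12.6%, 20.1%, 33.1%, 20.9%, 12.4%, 22%, 12.7%, 25.2% and 22.9% in the same order. With totals that leave out immunoglobulin, mitochondrial and rRNA-like genes, 10 pairs were higher and 16 lower, against 9.26% and 12.9% of all tested pairs. This scaling moved the median log2 ratio of all genes up by 0.08 in dendritic cells to 0.31 in B cells, and the median itself was -0.23 in epithelial cells, -0.15 in T cells, -0.09 in macrophages, -0.19 in neutrophils and -0.37 in B cells before.

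*Sema4d* was above 0 in 8 of 10 cell types and past the 1.5 fold in none. In neutrophils its level of 1.97 and 2.87 was a log2 ratio of 0.54 (0.41 to 0.68). It was past the fold under 5 of 8 other choices, among them 0.62 after thinning and 0.71 from summed UMIs. Mast cells had 0.43 (0.23 to 0.63), dendritic cells 0.34 (0.06 to 0.62), T cells 0.21 (0.11 to 0.31) and macrophages 0.19 (0.10 to 0.29). The ratio of macrophages was -0.03 after thinning and 0.36 from summed UMIs, and that of epithelial cells was 0.07 (-0.07 to 0.20). In neutrophils the 6 neutrophil markers had a summed level of 1606 and 1064, the epithelial markers 33.7 and 20.7 and the macrophage markers 3.05 and 3.32, and their part in the result was not tested. Within neutrophils, *Sema4d* was lower in cells with *Cxcr2*, a chemokine receptor of mature neutrophils, at 1.56 and 2.71 against 2.33 and 3.17 without. The ratio between the libraries was 0.80 (0.62 to 0.97) with *Cxcr2* and 0.44 (0.23 to 0.65) without. Neutrophils with a UMI of *Cxcr2* made up 46.8% and 65.6%, and after thinning 14.3% and 21.4%. Within macrophages, the ratio was 0.54 (0.36 to 0.72) with *Ly6c2* and 0.10 without, and 0.20 and 0.18 with and without *Mrc1*.

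*Nrp1* was above 0 and above the median of all genes in 9 of 9 cell types. With 5 other choices of cells or scaling it stayed above that median in 9 of 9, and after thinning in the 4 of 4 with enough UMIs, although with cells whose highest marker score was that of their own type epithelial cells had -0.12. In macrophages it was at 0.493 and 0.715, a log2 ratio of 0.54 (0.40 to 0.68), and in T cells the ratio was 0.29 (0.11 to 0.48). With the level of B cells, its background type, subtracted the ratio was 0.44 in macrophages and 0.10 in T cells. The endothelial markers in T cells summed to 1.54 and 1.90, and their part in the result was not tested. *Nrp1* was past the 1.5 fold in B cells, at 0.0563 (0.0393 to 0.107) and 0.123 (0.102 to 0.176) with a ratio of 1.12 (0.59 to 1.66), and in fibroblasts, at 1.38 and 2.18 with a ratio of 0.67 (0.17 to 1.16). Summed UMIs gave 0.50 in B cells and 0.42 in fibroblasts. In the 57 and 60 fibroblasts the 6 fibroblast markers summed to 75.7 and 126, the neutrophil markers to 32.6 and 5.08 and the T cell markers to 1.31 and 2.46, and their part in the result was not tested. The 6 plasma cell markers summed to 137 and 369 in B cells, where 71 and 309 UMIs of *Nrp1* were counted, and their part in the result was not tested. With and without *Ms4a1* the ratio in B cells was 1.29 (0.03 to 2.55) and 1.09 (0.51 to 1.66). In T cells it was 0.60 (0.28 to 0.93) with *Foxp3* and 0.06 (-0.17 to 0.29) without, and in macrophages 0.43 (0.29 to 0.57) with *Mrc1* and 0.27 (-0.05 to 0.59) without. Cells with *Foxp3* made up 15.1% and 22.6% of T cells, and 6.39% and 7.08% after thinning.

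*Cd72* was above 0 in 6 of 7 cell types. It was so in 4 of 7 in cells by marker score. With the level of epithelial cells, its background type, subtracted it was so in 2 of 5. With totals that leave out immunoglobulin, mitochondrial and rRNA-like genes it was so in 7 of 7. In macrophages its ratio was 0.57 (0.44 to 0.71), just within the 1.5 fold, with 0.35 from summed UMIs and 0.84 after thinning. In macrophages the 6 B cell markers summed to 0.437 and 0.706 and the 6 macrophage markers to 34 and 41.0, and their part in the result was not tested. Within macrophages the ratio was 0.08 (-0.06 to 0.21) with *Mrc1* and 1.19 without, with a lower bound of 0.88, and 1.19 (0.69 to 1.69) with *Ly6c2* and 0.50 (0.36 to 0.64) without. Macrophages with *Mrc1* made up 37.7% and 47.0%, and 12.0% and 18.8% after thinning. Epithelial cells are the background type of *Cd72*, so the ratio there is that of the background level itself and has no value after subtraction. In epithelial cells *Cd72* was past the fold at 0.77 (0.40 to 1.13), from a level of 0.0390 (0.0317 to 0.0495) to 0.0663 (0.0563 to 0.0799), against 4.86% of all genes higher in that cell type. It was within the fold at 0.57 from summed UMIs, 0.55 in cells whose highest marker score was that of their type and 0.39 with a pseudocount of 0.05, and reached 1.29 in cells with at least 500 genes and under 10% mitochondrial content. *Cd72* was then at 8.13% and 9.31% of its macrophage level, and the 6 macrophage markers in epithelial cells were at 5.57% and 6.77% of theirs, a sum of 1.89 and 2.78, and their part in the result was not tested. In B cells the ratio was -0.10 (-0.44 to 0.24), with 0.51 (0.07 to 0.96) in cells with *Ms4a1* and -1.47 (-2.14 to -0.79) in cells without. Over all B cells it was -0.59 from summed UMIs, past the fold, and 0.02 with totals that leave out immunoglobulin, mitochondrial and rRNA-like genes. The 6 plasma cell markers summed to 137 and 369 in B cells, and their part in the result was not tested.

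**Figure D5:**
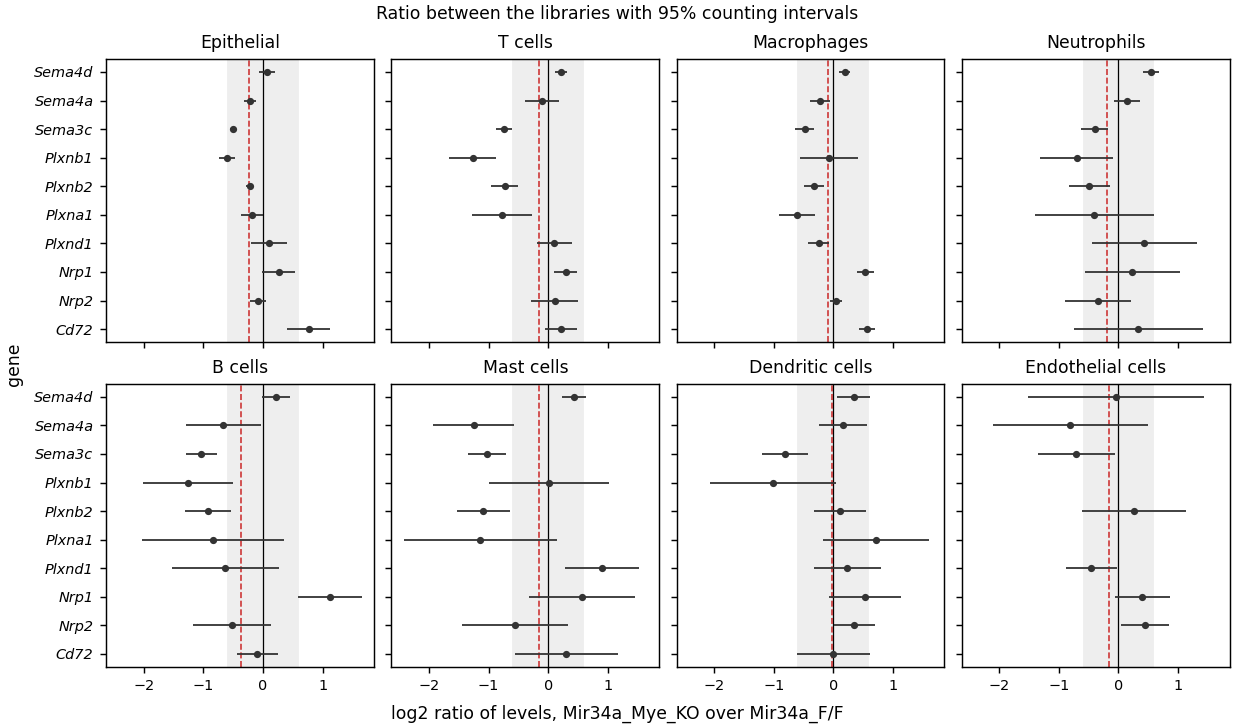
Log2 ratio of the level in the library labelled Mir34a_Mye_KO over the library labelled Mir34a_F/F for each of the 10 mRNAs in the 8 largest cell types, with 95% intervals for counting error. The grey band marks ratios within 1.5 fold, the red dashed line the median of all genes tested in that cell type, and *Sema4d*, *Nrp1* and *Cd72* lie right of the line wherever they have a value while *Sema3c* lies left of it in each of the 8.

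*Sema3c* was below 0 in 10 of 11 cell types, with fibroblasts at 0.37 (-0.07 to 0.81) as the exception. In epithelial cells its level was 2.42 and 1.70, a log2 ratio of -0.51 (-0.56 to -0.47), which is within the 1.5 fold and became -0.24 with totals that leave out immunoglobulin, mitochondrial and rRNA-like genes. It was past the fold in T cells at -0.75 (-0.88 to -0.61), B cells at -1.04 (-1.30 to -0.78), mast cells at -1.02 (-1.34 to -0.70), dendritic cells at -0.81 (-1.20 to -0.42) and endothelial cells at -0.71 (-1.36 to -0.07). The ratio of endothelial cells was -0.40 from summed UMIs and -0.07 after thinning, and -0.45 with the other totals. The share of all genes lower by the fold was 17.7% in T cells, 33.1% in B cells, 20.9% in mast cells, 12.4% in dendritic cells and 22% in endothelial cells. The epithelial markers were lower in these types as well. Their summed level was 30.7 and 17.0 in T cells, 27.1 and 11.9 in B cells and 29.2 and 15.2 in mast cells. It was 20.0 and 13.4 in dendritic cells, 35.6 and 21.0 in endothelial cells and 83.7 and 58.3 in epithelial cells. In fibroblasts, where the ratio of *Sema3c* was 0.37, the markers were also lower, at 31.7 and 21.0. The part of these markers in the result was not tested.

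*Plxnb1* was below 0 in 6 of 7 cell types and past the fold in epithelial cells, T cells, neutrophils, B cells and dendritic cells. Its log2 ratio was -0.60 (-0.74 to -0.47) in epithelial cells, where 14.8% of all genes were lower by the fold, but was within the fold, between -0.52 and -0.17, under all 8 other choices of cells, scaling, pseudocount or background that could change it. Median mitochondrial content of epithelial cells was 11.2% and 18.3%, with 2328 and 3825 cells at or above 25%, and its part in the ratios of epithelial cells was not tested. In T cells it was -1.26 (-1.66 to -0.87), from a level of 0.147 to 0.0610, and in neutrophils -0.70 (-1.31 to -0.09), where 20.1% of genes were lower. The ratio in neutrophils was 0.047 after thinning and within the fold under 4 of 7 choices, and that in dendritic cells, -1.01, was -0.58 from summed UMIs. *Plxnb2* was past the fold in T cells at -0.73 (-0.95 to -0.50), B cells at -0.92 (-1.31 to -0.53) and mast cells at -1.09 (-1.54 to -0.65), and the ratio of B cells was -0.36 after thinning. The epithelial markers were lower in all 11 cell types, also in dendritic and endothelial cells, where *Plxnb2* had 0.11 and 0.26, and their part in the ratios of *Plxnb1* and *Plxnb2* was not tested. In epithelial cells the ratio of *Plxnb2* was -0.22 (-0.28 to -0.16), and it was 0.11 from summed UMIs and 0.00 with the other totals.

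*Plxna1* was past the fold in macrophages, from 0.189 to 0.124 with a ratio of -0.60 (-0.90 to -0.30), against 12.6% of all genes lower there. This ratio was between -0.71 and -0.46 under the other choices of cells and scaling, and within the fold under 5 of 8. It was also lower past the fold in T cells, B cells and mast cells, with ratios of -0.77, -0.84 and -1.14, of which only the interval of T cells lay below 0, and higher in dendritic cells at 0.72 (-0.18 to 1.61). Each of these was within the fold with the pseudocount, at -0.40, -0.34, -0.42 and 0.46, and T cells had -0.57 in cells by marker score. *Plxnd1* was past the fold in mast cells, from 0.120 (0.0790 to 0.224) to 0.225 (0.184 to 0.302) with a ratio of 0.90 (0.29 to 1.52), against 5.03% of all genes higher. The ratio was 0.21 after the level of erythroid cells, its background type, was subtracted, which rests on 1 and 2 UMIs. Endothelial markers in mast cells summed to 0.986 and 1.41, with *Emcn* at 0 in the library labelled Mir34a_F/F, and their part in the result was not tested. *Plxnd1* was lower past the fold in B cells at -0.64 and fibroblasts at -0.78, with intervals that included 0, which became -0.39 and -0.58 with totals that leave out immunoglobulin, mitochondrial and rRNA-like genes. In endothelial cells it was -0.45 (-0.88 to -0.03), but 0.20 from summed UMIs. *Nrp2* was within the fold in 9 of 9 cell types, with 0.05 (-0.05 to 0.14) in macrophages and 0.45 (0.05 to 0.85) in endothelial cells. The latter was past the fold at 0.99 from summed UMIs, 0.62 in cells with at least 500 genes and under 10% mitochondrial content and 0.59 in cells by marker score, and was 0.20 after thinning. In dendritic cells with *Ccr7* its ratio was 0.47 (0.12 to 0.82). *Sema4a* was past the fold in mast cells at -1.25 (-1.93 to -0.58), in B cells at -0.67 (-1.30 to -0.04) and in endothelial cells at -0.81 (-2.11 to 0.50). In B cells it was -0.26 with totals that leave out immunoglobulin, mitochondrial and rRNA-like genes and in endothelial cells -0.42 from summed UMIs. The epithelial markers were at 29.2 and 15.2 in mast cells and 27.1 and 11.9 in B cells, and their part in the result was not tested. In neutrophils, where its level was highest, the ratio was 0.15 (-0.07 to 0.36), and -0.22 with the level of fibroblasts subtracted. Epithelial cells and macrophages had -0.22 (-0.32 to -0.11) and -0.22 (-0.39 to -0.05), which this subtraction, resting on 7 and 28 UMIs, moved to -2.21 and -1.48. The ratio of epithelial cells was 0.08 from summed UMIs, 0.06 with the other totals and -0.03 in cells by marker score. It was -0.25 after thinning and -0.34 in cells with at least 500 genes and under 10% mitochondrial content.

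The wider families were counted from fixed lists that include the 10 mRNAs. Of 129 tested pairs of semaphorin and cell type, 2 were higher (1.55%) and 38 lower (29.5%) by the fold, against 5.91% and 19% of all tested pairs, with a median log2 ratio of -0.28. Of 76 pairs of plexins and neuropilins, 11 were higher (14.5%) and 17 lower (22.4%), with a median of 0.02. Co-receptors, other receptors and proteases had 5 higher (4.95%) and 14 lower (13.9%) of 101, and effectors 12 higher (6.38%) and 7 lower (3.72%) of 188. Other semaphorins and plexins with a level of at least 1 in both libraries were found in endothelial cells, among them *Sema3f*, a secreted ligand of neuropilin-2, at 1.65 and 1.31 and *Sema6a*, a transmembrane semaphorin, at 3.25 and 3.40. *Sema6d*, a ligand of plexin-A1, was at 1.27 and 1.61, *Plxna2* at 1.93 and 2.11 and *Plxna4* at 1.14 and 1.42, both receptors of class 6 semaphorins. *Plxna2* also had 1.25 and 1.53 in mast cells.

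Partners of the members were named by a fixed rule in macrophages, neutrophils, T cells and epithelial cells. In macrophages *Mst1r*, a receptor kinase that couples to plexin-B1, had a log2 ratio of -0.90, and *L1cam*, a co-receptor of neuropilin-1, -0.79. In T cells *Timd2*, a receptor of *Sema4a*, had 1.23 from levels of 0.0129 and 0.0304, and *Itga1*, an integrin chain that binds *Sema7a*, 0.72. *Erbb2*, which associates with plexin-B1, had -0.87 and *Mst1r* -0.85 in T cells. In each of these types 2 of 12 tested co-receptors, other receptors and proteases were lower by the fold, against 12.6% of all genes in macrophages and 17.7% in T cells. Of the same 12, none in macrophages and 2 in T cells were higher, against 4.53% and 3.09% of all genes. The epithelial markers were at 23.4 and 17.9 in macrophages and 30.7 and 17.0 in T cells, and their part in these ratios was not tested. In neutrophils *Rnd1*, a GTPase that binds plexins, had 0.86 from levels of 0.118 and 0.215, as 1 of 20 tested effectors that were higher, against 6.3% of all genes.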

How the data were processed

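The deposited table holds, per the authors, natural log values of UMIs scaled to 10000 per cell (Seurat LogNormalize), with cell types, for 2 single-cell libraries prepared with 10x 3′ chemistry, and cells with over 200 genes and under 25% mitochondrial RNA, with doublets removed by Scrublet, are stated as kept. Cell Ranger 7.2.0 and mm10 are named in the submitters' processing notes. The log was undone, and UMIs recovered from the smallest value of each cell were whole within 1.49e-10. Levels have gamma intervals for weighted Poisson sums, shares exact binomial intervals and log2 ratios delta-method intervals, at 95%, for counting error only. Ratios needed 10 UMIs in each library. With 1 library per genotype no test was made. Intervals tested on simulated data held the true ratio for 94.7% of 15720 genes in macrophages and 94.1% of 7190 in endothelial cells. The simulation drew Poisson counts at the same level in all cells of a type and library, as the intervals assume. It therefore does not cover differences between cells of a type. Of genes changed by 1.5 fold, 79.8% of 99 in macrophages and 40% of 95 in endothelial cells had an interval off 0 in the right direction. The members, gene lists and gates were chosen with earlier results of these data known. Other genes were named where a family gene reached a level of 1 in both libraries of a cell type, or as the list genes furthest past the fold, and likeness took the 2 highest correlations. Alternatives were summed UMIs, thinning to 1000 UMIs, cells under 25% mitochondrial content, stricter cells, totals without 409 immunoglobulin, mitochondrial and rRNA-like genes, cells by marker score, a pseudocount of 0.05, background subtraction and at least 30 UMIs. Seed matches used GENCODE 3′ UTRs and RefSeq's miR-34a. Python 3.11.15, numpy 2.4.6, scipy 1.17.1, pandas 2.3.3 and matplotlib 3.10.9 were used.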

Additional observations from a re-analysis of the deposited data

Results flagged for a closer look

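The log2 ratio of *Plxnd1* between the libraries had different signs in 3 cell types, with intervals for counting error that did not include 0. It was 0.90 (0.29 to 1.52) in mast cells, -0.24 (-0.42 to -0.07) in macrophages and -0.45 (-0.88 to -0.03) in endothelial cells. With 1 library per genotype this difference between cell types was not tested. The ratio of endothelial cells was 0.20 when UMIs were summed over cells. With the level of erythroid cells, the background type of *Plxnd1*, subtracted (1 and 2 UMIs), the ratio was 0.21 in mast cells, -0.83 in macrophages and -0.54 in endothelial cells.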

How the results depend on the processing

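Of 523 log2 ratios of members recomputed under processing that can turn a sign 460 kept their direction. For ratios past the 1.5 fold it was 153 of 154, and 140 of 181 stayed past the fold under processing that can change this, the pseudocount included. The exception was *Plxnb1* in neutrophils, which was 0.047 after thinning against -0.70 as reported. The count of member pairs higher by the fold was 5 of 86 as reported, against 5.91% of all tested pairs. It was 13 of 84 in cells with at least 500 genes and under 10% mitochondrial content, against 7.13%. Totals without immunoglobulin, mitochondrial and rRNA-like genes gave 10 of 86, against 9.26%. Cells whose highest marker score was that of their type gave 8 of 84, against 6.04%. A pseudocount of 0.05 gave 3 of 86, and no share of all pairs was computed with it. The count lower, 22 of 86 as reported against 19% of all pairs, was 9 of 53 after thinning against 12.8%. With the pseudocount it was 13 of 86. Over the wider families, to which the same shares of all pairs apply, the 30 of 494 higher became 48 of 472 in the stricter cells. They became 54 of 494 with the other totals and 17 of 494 with the pseudocount. The 76 of 494 lower became 39 of 320 pairs after thinning and 41 of 494 with the pseudocount. Thinning left fewer pairs with enough UMIs, and for the other changes the cause was not tested. The number of members with the same highest cell type in both libraries was between 7 and 10. No paired analysis was possible because each genotype has 1 library, and for the same reason no replicate could be left out. Ratios restricted to cells with or without a UMI of a gate gene were chosen after seeing the data. Of 304 log2 ratios of cells with over cells without a gate gene, 266 kept their direction with summed UMIs. In cells under 25% mitochondrial content 298 of 304 did, and in cells by marker score 257 of 295. The number of cells limits the rarest types, with 2 of 10 member ratios given in basophils and 1 of 10 in erythroid cells.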
